A study of Homo sapiens with 9 samples.

Results

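The genes described are 50 genes of mitosis and the G2/M transition, measured in H69 cells, an established cell line from a human small cell lung cancer. They were chosen by name: every probe set annotated to exactly 1 symbol of the list was taken, and the brightest of them over all 9 arrays represented the gene. All 50 genes were measured, among 19775 genes in all, and they were grouped by role into 10 sets. Every culture was the same cell line in the same complete medium, and differed in treatment: the vehicle DMSO (control), PIK75 at 100 nM or TGX221 at a labelled 1 mM, each for 24 h, with 3 arrays per group. PIK75 and TGX221 inhibit phosphoinositide 3-kinases, lipid kinases that relay growth factor signals, and are known for different preferred isoforms (the products of PIK3CA and PIK3CB, respectively). The doses differ, and nothing in the files tells whether mM is the right unit for TGX221. The control samples carry the treatment entry none, while the protocol names DMSO. The title of the study speaks of impaired proliferation on targeting the p110α isoform, which is the question that the genes of cell division bear on. The labels do not say whether the arrays of a group came from separate cultures, so p-values measure the spread between these arrays, which may be technical.

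Cells enter mitosis when CDK1, bound to a B-type or A-type cyclin, is activated by CDC25 phosphatases, and they leave it when the anaphase-promoting complex destroys those cyclins together with securin. In between, kinases of the polo and aurora families build the spindle, kinesins move its microtubules, kinetochores attach the chromosomes, and the spindle assembly checkpoint holds back anaphase until attachment is complete. Most of these genes are transcribed late in the cell cycle under the MuvB complex with B-MYB or FOXM1, which acts through a short promoter element called the cell cycle genes homology region (CHR). Together they are widely read as markers of cycling cells.

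The CHR, searched here as TTTGAA on either strand, was found in the promoter window of 33 of the 43 genes for which RefSeq (GRCh38.p14) gave one, which is 76.7%, against 18.2% of 27305 genes. A window runs from 250 bases before to 50 bases after an annotated start, and a gene counts when any of its windows holds the motif. The CCAAT box, searched as CCAAT on either strand, was in 36 of the 43 (83.7%, against 39.7%), and 27 of the 43 (62.8%) held both, against 7.26%. Counted over windows, the CHR was in 36 of 55 (65.5%) against 15.2% of 35116. No window was at hand for FOXM1, AURKA, BIRC5, BUB3, TTK, UBE2C and TPX2. The sequences shown are the 110 bases before the start of 2 genes that were higher with PIK75, 1 that was not called and 3 that were lower, because genes that moved in opposite directions carry the same element. Each is written 5′ to 3′ on the strand of the gene in lower case, and capitals mark TTTGAA or its reverse complement TTCAAA, and CCAAT or its reverse complement ATTGG. CDC20 (chr1:43358871-43358980, plus strand) and PRC1 (chr15:90994536-90994645, minus strand) were higher, PLK1 (chr16:23678779-23678888, plus strand) was not called, and CCNB2 (chr15:59105036-59105145, plus strand), KIF11 (chr10:92593020-92593129, plus strand) and KIF15 (chr3:44761684-44761793, plus strand) were lower.
CDC20: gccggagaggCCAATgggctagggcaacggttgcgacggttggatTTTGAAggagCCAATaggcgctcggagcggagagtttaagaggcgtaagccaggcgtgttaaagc
PRC1: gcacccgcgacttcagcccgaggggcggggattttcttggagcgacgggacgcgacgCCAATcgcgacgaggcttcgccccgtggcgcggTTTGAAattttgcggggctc
PLK1: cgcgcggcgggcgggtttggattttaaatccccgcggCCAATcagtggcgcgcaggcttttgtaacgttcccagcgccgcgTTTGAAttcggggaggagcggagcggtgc
CCNB2: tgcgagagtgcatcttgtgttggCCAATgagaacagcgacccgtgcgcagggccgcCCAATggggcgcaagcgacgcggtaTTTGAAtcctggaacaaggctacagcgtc
KIF11: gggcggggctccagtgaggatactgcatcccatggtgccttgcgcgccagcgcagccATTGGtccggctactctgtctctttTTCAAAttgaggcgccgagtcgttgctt
KIF15: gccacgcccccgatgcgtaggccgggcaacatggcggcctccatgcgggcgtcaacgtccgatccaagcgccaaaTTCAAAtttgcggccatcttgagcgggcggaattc

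Counted from the start, the first base of the CHR lay at -65 in CDC20, -20 in PRC1, -29 in PLK1, -29 in CCNB2, -28 in KIF11 and -35 in KIF15. The element was in 10 of 12 windowed genes that were higher with PIK75 (83.3%), 10 of 13 that were lower (76.9%) and 13 of 18 that were not called (72.2%). The CCAAT box was in 11 of 12, 10 of 13 and 15 of 18. A match of letters is a description of the window only. Neither motif was confined to genes that moved in 1 direction.

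With PIK75 the 50 genes split evenly against control: 16 were higher, 16 were lower and 18 were not called at an adjusted p below 0.05 (limma, adjusted over all 19775 genes). That is 32% in each direction, where 35.2% of all genes were called higher and 25.2% lower. The median log2 fold change of the 50 genes was 0.03, against 0.09 over all genes, and their interquartile range was -0.39 to 0.18. The median size of the change, sign aside, was 0.20 for the 50 genes and 0.21 for all. The largest differences were in opposite directions: CDCA3, a trigger of mitotic entry that is also degraded in G1, was 2.35-fold higher, and KIF15, a spindle kinesin, was 2.48-fold lower. With a minimum of 1.5-fold, 3 genes were higher (CDCA3, BIRC5 and FOXM1) and 7 were lower (KIF15, SPC25, KIF11, BUB3, KIF4A, PLK4 and CENPE). Those are 6% and 14%, where the same rule called 1.48% of all genes higher and 10.4% lower. Of the genes at least as bright as the dimmest of the 50, it called 2.2% higher and 17.2% lower. The 3 PIK75 values lay wholly above or below the 3 control values for 38 genes (76%), as they did for 64.7% of all genes. The 50 genes are bright, with control log2 levels of 8.18 to 13.56 (median 11.12, all genes 8.21), and among the 10232 genes at least as bright as the dimmest of them 31.4% were higher, 40.5% were lower and 76.1% did not overlap. In bulk RNA, fewer dividing cells and less RNA per cell cannot be told apart.

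**Figure D1:**
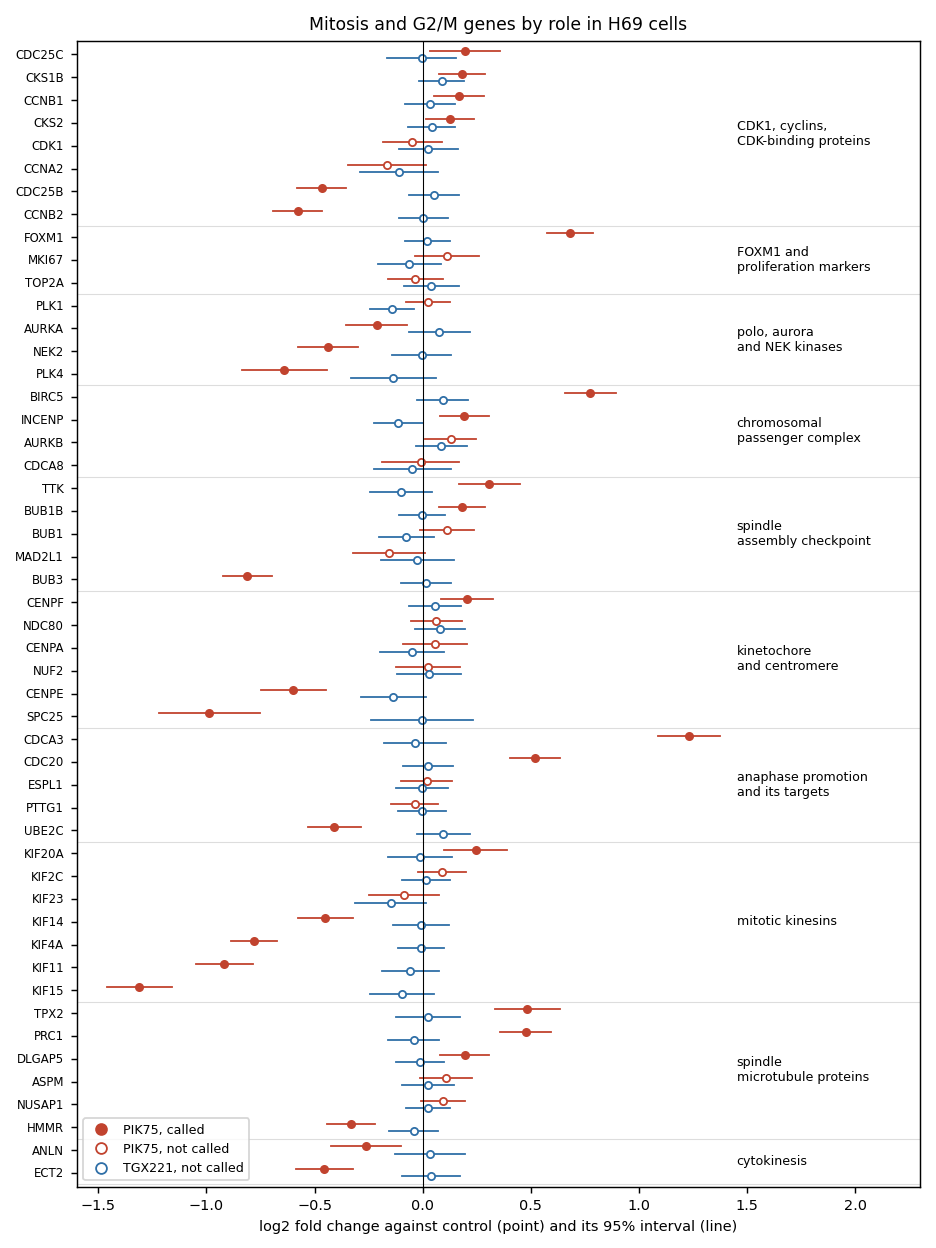
Log2 fold change against control (horizontal axis) of the 50 genes (vertical axis, by role), with the 95% interval as a line, for PIK75 (red) and TGX221 (blue), 3 arrays per group; filled points were called at an adjusted p below 0.05. With PIK75 16 genes lie called to the right of 0 and 16 to the left on the deposited scale. This becomes 3 and 38 when arrays are centred on the hybridization spikes, and 6 and 18 on the poly-A spikes. No gene was called with TGX221.

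The number of genes called higher changed with the scaling between arrays. RMA gives all arrays the same distribution, so a change shared by most genes cannot be measured on it. The hybridization spikes, transcripts added in fixed amount after labelling, averaged 11.15 to 11.24 in control and 11.18 to 11.28 with TGX221, but 11.52 to 11.56 with PIK75. When each array was centred on them, the median of all genes with PIK75 moved from 0.09 to -0.26, and 3 of the 50 genes were higher and 38 lower, or 6% and 76%, where 1.95% of all genes were higher and 66.3% lower. Relative to the median of all genes, the median of the 50 was -0.06 on both scales. This is so by construction, as centring shifts every gene of an array alike. Centring on array medians gave 10 higher and 18 lower, with 23.9% and 28% of all genes. The poly-A spikes, added before labelling, averaged 7.98 to 8.05 in control, 7.86 to 8.01 with TGX221 and 7.99 to 8.16 with PIK75. Centring on them gave 6 higher and 18 lower, with 12.5% and 25.8% of all genes and a median of all genes of 0.007. Cyclic loess gave 23 and 14, with 22.9% and 25% of all genes and a median of the 50 genes 0.10 above that of all genes. With array medians CCNB1, CKS2, CDC25C, INCENP, BUB1B and DLGAP5 were no longer called, and with poly-A spikes these and CKS1B, TTK, CENPF and KIF20A were not. CDCA3, BIRC5 and FOXM1 were called higher under every alternative run other than the 1.5-fold minimum. Wherever tested, 13 of the 16 lower genes were called lower under the same runs. They were CDC25B, PLK4, NEK2, BUB3, SPC25, CENPE, UBE2C, KIF11, KIF4A, KIF14, KIF15, HMMR and ECT2. The run without dim genes tested 48 of the 50 genes and left out KIF15 and PLK1. Of the other 13 higher genes, 10 turned below 0 on the hybridization spikes, and their value there, called the spike-centred change from here on, is given with each. The term covers the hybridization spikes only. On the poly-A spikes the same 10 stayed above 0 without a call, from 0.045 (CKS2) to 0.226 (TTK). Along with the hybridization spikes, the interquartile range of gene values moved with PIK75 (2.48 to 2.57, control 2.78 to 2.83), and so did the 3′ minus 5′ difference of the actin probe sets, a sign of RNA quality (0.47 to 1.13, control 0.24 to 0.44). The 1.13 was PIK75 replicate 5, with replicates 1 and 3 at 0.47 and 0.54. The same difference for GAPDH overlapped, at -0.002 to 0.078 with PIK75 and -0.052 to 0.013 in control. The part of these array measures in the results was not tested.

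**Figure D2:**
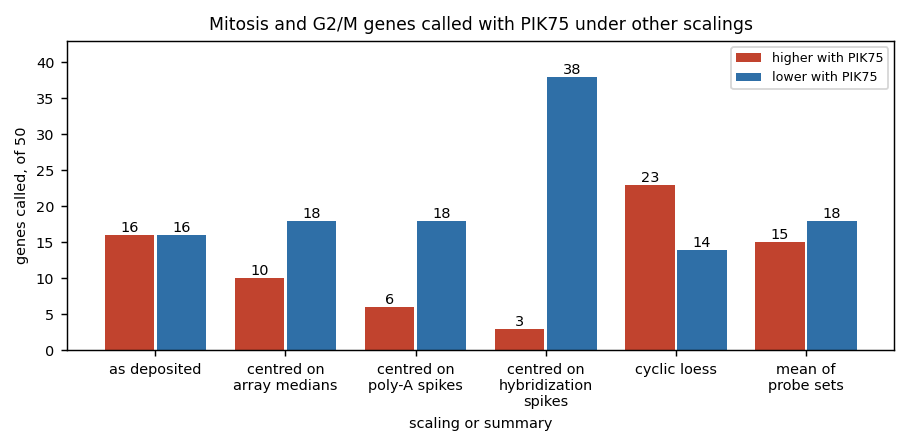
Number of the 50 genes called higher (red) or lower (blue) with PIK75 against control (vertical axis), under each scaling or summary of the values (horizontal axis). The deposited values give 16 and 16, the poly-A spikes 6 and 18, the hybridization spikes 3 and 38, and cyclic loess 23 and 14.

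Among CDK1, its cyclins and the proteins that act on it, 4 of 8 genes rose, 2 fell and 2 did not pass the test, or 50% and 25% beside 35.2% and 25.2% of all genes. The same shares of all genes stand beside each role set that follows, and with 2 to 8 genes in a set its counts are a description. CCNB2, the cyclin B2 gene, measured 12.35, 12.32 and 12.34 on the control arrays, 11.74, 11.74 and 11.80 with PIK75, and 12.42, 12.28 and 12.32 with TGX221. All 3 PIK75 values lay below the other 6, and CCNB2 was 1.49-fold lower than control (log2 fold change -0.58, SE 0.052, adjusted p 1.43e-06). This call was lost when the probe sets of the gene were averaged (-0.10, adjusted p 0.105). CCNB1, the other main mitotic cyclin, measured 12.51, 12.44 and 12.49 in control, 12.67, 12.66 and 12.61 with PIK75, and 12.58, 12.53 and 12.43 with TGX221. The PIK75 values were the highest 3, by a small margin: CCNB1 rose by 0.17 (SE 0.054, adjusted p 0.0178; spike-centred -0.18), a call lost without control replicate 3 (0.15, adjusted p 0.0634), with array medians (0.11, adjusted p 0.115), with poly-A spikes (0.087, adjusted p 0.535) and with averaged probe sets (0.039, adjusted p 0.504). CDC25B, a phosphatase that activates CDK1, measured 11.90, 11.92 and 11.90 in control, 11.43, 11.38 and 11.51 with PIK75, and 11.98, 11.90 and 12.00 with TGX221. Its PIK75 values lay far below the rest, a change of -0.47 (SE 0.052, adjusted p 9.91e-06). CKS1B, a small CDK-binding protein, measured 12.35, 12.35 and 12.27 in control, 12.49, 12.52 and 12.50 with PIK75, and 12.44, 12.39 and 12.40 with TGX221. Here the 3 groups did not overlap, with PIK75 above TGX221 above control, but only PIK75 passed against control (0.18, SE 0.048, adjusted p 0.00679; spike-centred -0.17).

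CDK1, the kinase itself, measured 12.45, 12.43 and 12.61 in control, 12.49, 12.49 and 12.37 with PIK75, and 12.53, 12.57 and 12.47 with TGX221. The groups overlapped, and the difference with PIK75 was -0.05 with a 95% interval from -0.18 to 0.09 (adjusted p 0.515). When its probe sets were averaged, CDK1 was lower (-0.21, adjusted p 0.00726), and so it was spike-centred (-0.40, adjusted p 9.76e-05). CCNA2, cyclin A2, differed by -0.17 (adjusted p 0.0971) without overlap between PIK75 and control. It was called lower without TGX221 replicate 5 (adjusted p 0.0338), and with only both compared groups in the fit (adjusted p 0.0395). The same held with array medians (-0.22, adjusted p 0.0465), with poly-A spikes (-0.25, adjusted p 0.0337) and spike-centred (-0.52, adjusted p 1.39e-05). CKS2, the close relative of CKS1B, rose by 0.13 (adjusted p 0.0451; spike-centred -0.23), and CDC25C, another CDK1 phosphatase, by 0.20 (adjusted p 0.0366; spike-centred -0.16). Both calls were marginal: CKS2 was lost on leaving out any array other than control replicate 1 or PIK75 replicate 5 (adjusted p 0.0527 to 0.125), and CDC25C on leaving out any control array or PIK75 replicate 1 or 5 (adjusted p 0.0641 to 0.135).

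FOXM1, the transcription factor that drives many of these genes, rose, and both proliferation markers beside it were not called. Its values were 10.66, 10.68 and 10.71 in control, 11.37, 11.34 and 11.38 with PIK75, and 10.74, 10.66 and 10.71 with TGX221. All PIK75 arrays lay above all others, a 1.60-fold difference (log2 fold change 0.68, SE 0.048, adjusted p 1.66e-07). MKI67, the gene of the Ki-67 antigen, measured 10.57, 10.57 and 10.54 in control, 10.73, 10.78 and 10.51 with PIK75, and 10.46, 10.52 and 10.51 with TGX221. The PIK75 arrays scattered around the control values and 1 of them was below all 3 (0.11, SE 0.067, adjusted p 0.165; spike-centred -0.24), while without PIK75 replicate 5 MKI67 was higher (0.19, adjusted p 0.00957). TOP2A, the topoisomerase that untangles sister chromatids, measured 13.12, 13.11 and 13.13 in control, 13.13, 13.16 and 12.96 with PIK75, and 13.13, 13.19 and 13.15 with TGX221. The groups overlapped, with a difference of -0.04 for PIK75 (95% interval -0.16 to 0.09, adjusted p 0.612). Spike-centred, TOP2A was called lower (-0.39, adjusted p 7.46e-05).

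Of the polo, aurora and NEK kinases grouped here, 3 of 4 fell with PIK75 and none rose. PLK4, the kinase of centriole duplication, measured 9.21, 9.23 and 9.55 in control, 8.85, 8.64 and 8.58 with PIK75, and 9.19, 9.19 and 9.21 with TGX221. Although control replicate 5 stood above its group, all PIK75 values lay below all others, 1.56-fold lower than control (-0.64, SE 0.091, adjusted p 7.5e-05). NEK2, a kinase that splits centrosomes, measured 11.90, 11.86 and 11.97 in control, 11.53, 11.47 and 11.42 with PIK75, and 11.84, 12.04 and 11.84 with TGX221. The PIK75 group was again separate from both others (-0.44, SE 0.063, adjusted p 9.08e-05). AURKA, the spindle pole kinase, measured 10.40, 10.42 and 10.42 in control, 10.33, 10.16 and 10.11 with PIK75, and 10.50, 10.56 and 10.40 with TGX221. AURKA fell by 0.21 (SE 0.065, adjusted p 0.0141), and its call was lost without PIK75 replicate 3 (adjusted p 0.0501), without PIK75 replicate 5 (adjusted p 0.0559), under cyclic loess (-0.10, adjusted p 0.159) and with its probe sets averaged (-0.06, adjusted p 0.327). PLK1, the polo kinase of mitotic entry, measured 8.18, 8.19 and 8.17 in control, 8.23, 8.22 and 8.17 with PIK75, and 8.04, 8.03 and 8.05 with TGX221. PIK75 and control overlapped (0.02, SE 0.047, adjusted p 0.669; spike-centred -0.33), while the TGX221 values were the lowest 3 of the 9.

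In the chromosomal passenger complex, which corrects faulty chromosome attachments, 2 of 4 genes rose and none fell. BIRC5, which encodes survivin, measured 11.46, 11.40 and 11.49 in control, 12.27, 12.19 and 12.21 with PIK75, and 11.61, 11.48 and 11.53 with TGX221. The PIK75 arrays stood apart from all 6 others, 1.71-fold above control (0.77, SE 0.054, adjusted p 1.51e-07). INCENP, the scaffold of the complex, measured 9.12, 9.15 and 9.15 in control, 9.42, 9.28 and 9.31 with PIK75, and 9.03, 9.06 and 9.01 with TGX221. INCENP rose by 0.19 (SE 0.052, adjusted p 0.00742; spike-centred -0.16), and its TGX221 values lay below every control value without passing the test (-0.11, adjusted p 0.277). AURKB, the kinase of the complex, measured 9.03, 9.03 and 9.13 in control, 9.25, 9.13 and 9.20 with PIK75, and 9.18, 9.16 and 9.11 with TGX221. The PIK75 and control ranges touched, and the difference of 0.13 (SE 0.054; spike-centred -0.22) narrowly missed the threshold at an adjusted p of 0.0561. It passed without control replicate 5 (adjusted p 0.0372), without PIK75 replicate 3 (adjusted p 0.0398), under cyclic loess, without dim genes and with the probe sets averaged (0.21, adjusted p 0.00143). CDCA8, borealin, differed by -0.01 (95% interval -0.19 to 0.17, adjusted p 0.924), but was called lower spike-centred (-0.36, adjusted p 0.000872).

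In the spindle assembly checkpoint, 2 of 5 genes rose and 1 fell. BUB3, which brings checkpoint kinases to the kinetochore, measured 12.33, 12.30 and 12.41 in control, 11.56, 11.51 and 11.54 with PIK75, and 12.37, 12.41 and 12.30 with TGX221. The PIK75 group was separate and 1.75-fold lower than control (-0.81, SE 0.053, adjusted p 8.01e-08). TTK, the kinase that starts checkpoint signalling, measured 10.75, 10.77 and 10.92 in control, 11.12, 11.07 and 11.17 with PIK75, and 10.69, 10.82 and 10.63 with TGX221. All PIK75 values were above all others (0.31, SE 0.066, adjusted p 0.00167; spike-centred -0.05). BUB1B, an inhibitor of the anaphase-promoting complex, measured 12.31, 12.29 and 12.33 in control, 12.53, 12.52 and 12.44 with PIK75, and 12.30, 12.33 and 12.29 with TGX221. BUB1B rose by 0.18 (SE 0.049, adjusted p 0.00707; spike-centred -0.17). The kinase BUB1 differed by 0.11 (adjusted p 0.11; spike-centred -0.24), and MAD2L1, which encodes the checkpoint effector MAD2, by -0.16 (adjusted p 0.0966). Both were free of overlap with control, as were all 5 genes of this set. The same held for 64.7% of all genes, and for 76.1% of those at least as bright as the dimmest gene described here. MAD2L1 was called lower without TGX221 replicate 3 (adjusted p 0.0334), with array medians or poly-A spikes as the reference, and spike-centred (-0.51, adjusted p 5.25e-06). The same held on averaged probe sets (-0.23, adjusted p 0.00269) and with only both compared groups in the fit. BUB1 was called higher under cyclic loess (0.22, adjusted p 0.00475).

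Of the kinetochore and centromere genes, 1 of 6 rose and 2 fell. SPC25, a subunit of the NDC80 complex that grips microtubules, measured 9.61, 9.52 and 9.89 in control, 8.84, 8.65 and 8.57 with PIK75, and 9.62, 9.86 and 9.52 with TGX221. Despite a wide spread within each group, the PIK75 values lay below all others, 1.98-fold lower than control (-0.99, SE 0.11, adjusted p 8.1e-06). CENPE, a kinetochore-bound kinesin, measured 9.97, 9.85 and 9.88 in control, 9.41, 9.20 and 9.29 with PIK75, and 9.79, 9.85 and 9.65 with TGX221. CENPE was 1.51-fold lower (-0.60, SE 0.070, adjusted p 1.33e-05), with no overlap between PIK75 and either other group. CENPF, a large protein of the outer kinetochore, measured 12.17, 12.21 and 12.10 in control, 12.30, 12.37 and 12.43 with PIK75, and 12.24, 12.16 and 12.24 with TGX221. It rose by 0.20 (SE 0.055, adjusted p 0.00734), yet it was lower when its probe sets were averaged (-0.24, adjusted p 0.00155) and spike-centred (-0.15). The other subunits of the NDC80 complex did not pass the test: NDC80 differed by 0.06 (adjusted p 0.314; spike-centred -0.29) and NUF2 by 0.03 (adjusted p 0.754; spike-centred -0.33). CENPA, the histone that marks the centromere, differed by 0.06 (adjusted p 0.494; spike-centred -0.30). NDC80 was called higher under cyclic loess (0.19, adjusted p 0.00798).

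The set around anaphase held the gene that rose most. CDCA3 measured 10.08, 10.15 and 10.11 in control, 11.40, 11.38 and 11.26 with PIK75, and 10.10, 10.18 and 9.95 with TGX221. The PIK75 arrays were more than 1 log2 unit above every other array, 2.35-fold above control (1.23, SE 0.066, adjusted p 1.55e-08). CDC20, the activator of the anaphase-promoting complex, measured 10.97, 10.93 and 10.92 in control, 11.44, 11.43 and 11.50 with PIK75, and 11.04, 10.96 and 10.89 with TGX221. CDC20 was 1.43-fold higher with no overlap (0.52, SE 0.053, adjusted p 4.62e-06), and spike-centred it stayed above 0 without passing (0.17, adjusted p 0.0627). UBE2C, the ubiquitin-conjugating enzyme of the same complex, measured 11.97, 11.98 and 11.93 in control, 11.63, 11.53 and 11.49 with PIK75, and 12.13, 12.04 and 12.00 with TGX221. PIK75 lay below and TGX221 above the control values, and only the first difference passed the test (-0.41, SE 0.056, adjusted p 5.88e-05). PTTG1, securin, was the brightest of the 50 probe sets, at 13.54 to 13.58 in control and 13.49 to 13.57 with PIK75 (-0.04, adjusted p 0.521). PTTG1 was called lower spike-centred (-0.39, adjusted p 6.3e-05). ESPL1, separase, differed by 0.02 (adjusted p 0.785; spike-centred -0.33). So 2 of these 5 genes rose, 1 fell and 2 were not called.

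Of the mitotic kinesins 4 of 7 fell and 1 rose, with a median log2 fold change of -0.45, where 25.2% of all genes and 40.5% of the genes at least as bright as the dimmest of the 50 were lower. KIF15, which helps to hold the spindle poles apart, measured 8.56, 8.74 and 8.71 in control, 7.49, 7.32 and 7.26 with PIK75, and 8.55, 8.61 and 8.55 with TGX221. The PIK75 arrays were more than 1 log2 unit below every other array, 2.48-fold lower than control (-1.31, SE 0.069, adjusted p 1.36e-08). KIF4A, a chromosome-bound kinesin, measured 10.65, 10.70 and 10.69 in control, 9.95, 9.88 and 9.87 with PIK75, and 10.70, 10.65 and 10.67 with TGX221. KIF4A was 1.72-fold lower (-0.78, SE 0.049, adjusted p 5.87e-08), again with no overlap. KIF11, the Eg5 motor that separates the poles, measured 10.76, 10.75 and 10.78 in control, 9.91, 9.86 and 9.77 with PIK75, and 10.64, 10.82 and 10.66 with TGX221. Its PIK75 values were the lowest 3, 1.89-fold lower than control (-0.92, SE 0.061, adjusted p 8.96e-08). KIF14, a kinesin of the midbody, fell by 0.45 (adjusted p 3.8e-05). KIF20A, which carries the passenger complex to the midzone, rose by 0.24 (adjusted p 0.0082; spike-centred -0.11). KIF2C, a microtubule depolymerase, differed by 0.09 (adjusted p 0.151; spike-centred -0.26) and KIF23, a subunit of centralspindlin, by -0.09 (adjusted p 0.33). KIF23 was called lower spike-centred (-0.44, adjusted p 6.04e-05). KIF2C was called higher under cyclic loess (0.21, adjusted p 0.00701).

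Of the spindle microtubule proteins, 3 of 6 rose and 1 fell. PRC1, which bundles the antiparallel microtubules of the midzone, measured 11.78, 11.74 and 11.76 in control, 12.27, 12.20 and 12.24 with PIK75, and 11.81, 11.67 and 11.68 with TGX221. The PIK75 values lay above all others, 1.39-fold above control (0.48, SE 0.054, adjusted p 1.08e-05). TPX2, an activator of aurora A, measured 11.64, 11.71 and 11.55 in control, 12.18, 12.18 and 11.97 with PIK75, and 11.71, 11.66 and 11.59 with TGX221. TPX2 rose by a like amount (0.48, SE 0.069, adjusted p 7.64e-05). Spike-centred, neither passed (PRC1 0.12, adjusted p 0.168; TPX2 0.13, adjusted p 0.147). HMMR, a microtubule-binding protein of the spindle poles, measured 12.20, 12.23 and 12.21 in control, 11.85, 11.87 and 11.93 with PIK75, and 12.15, 12.24 and 12.12 with TGX221. Thus HMMR went the other way, to 1.26-fold lower (-0.33, SE 0.052, adjusted p 0.000166). DLGAP5, a spindle stabiliser, rose by 0.19 (adjusted p 0.00706; spike-centred -0.16). ASPM, a spindle pole protein, differed by 0.11 (adjusted p 0.114; spike-centred -0.25) and NUSAP1, which crosslinks spindle microtubules, by 0.10 (adjusted p 0.0948; spike-centred -0.26), both without overlap and both called higher under cyclic loess (0.23 and 0.22) and with a trended and robust spread (adjusted p 0.0419 and 0.0108).

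Both genes of cytokinesis fell. ECT2, the exchange factor that switches on RhoA at the cleavage furrow, measured 11.93, 11.92 and 12.10 in control, 11.56, 11.52 and 11.50 with PIK75, and 11.98, 12.10 and 11.98 with TGX221. The PIK75 values were separate from the rest (-0.46, SE 0.061, adjusted p 4.77e-05). ANLN, anillin, measured 11.27, 11.23 and 11.39 in control, 11.14, 11.02 and 10.94 with PIK75, and 11.29, 11.47 and 11.23 with TGX221. The gap was narrower (-0.26, SE 0.074, adjusted p 0.00904), and the call was lost under cyclic loess (-0.15, adjusted p 0.0887).

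**Figure D3:**
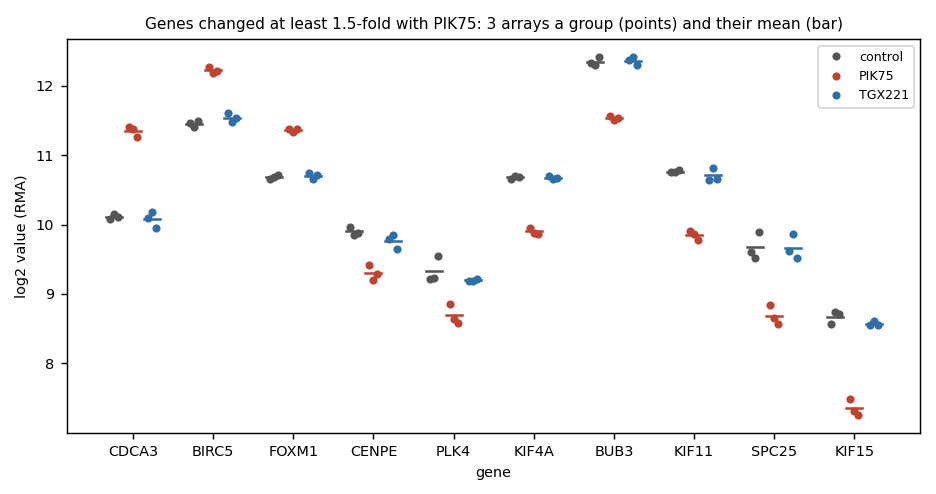
Log2 value (vertical axis) on each array of the 10 genes called at 1.5-fold or more with PIK75 (horizontal axis), as points for control (grey), PIK75 (red) and TGX221 (blue), with the mean of 3 arrays as a bar. In each gene the 3 PIK75 points lie apart from the 3 control points, above for CDCA3, BIRC5 and FOXM1 and below for the other 7, and these directions held under every scaling run.

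With TGX221 none of the 50 genes was called in either direction by limma, where 0.809% of all genes were called higher and 0.399% lower. None was called under any alternative run, though the run without dim genes tested only 48. In 5 runs no gene at all was called, so 0 calls among the 50 are uninformative there. These had only both groups fitted, the replicate block, or left out control replicate 3, TGX221 replicate 2 or TGX221 replicate 5. On the deposited scale with all arrays, 1 of the 50 had an unadjusted p below 0.05, PLK1, against 18.3% of all genes. PLK1 lay below the control range (-0.14, 95% interval -0.24 to -0.04) with an adjusted p of 0.147, the lowest of the 50. The log2 fold changes ran from -0.15 (KIF23) to 0.09 (UBE2C), with a median of -0.005 against -0.002 over all genes. Their median size, sign aside, was 0.039, against 0.069 over all genes. The 95% intervals reached from -0.33 (PLK4) to 0.23 (SPC25), so differences beyond 1.26-fold lower or 1.17-fold higher lie outside the interval of each of the 50 genes. For 7 genes (14%) the TGX221 and control values did not overlap, as for 23.9% of all genes. CKS1B and UBE2C were above control, and MKI67, PLK4, PLK1, INCENP and KIF23 were below it. With TGX221 the genes higher by at least 1.5-fold with PIK75 were at -0.04 (CDCA3), 0.09 (BIRC5) and 0.02 (FOXM1). The genes lower by that much were at -0.10 (KIF15), -0.005 (SPC25), -0.06 (KIF11), 0.01 (BUB3), -0.009 (KIF4A), -0.14 (PLK4) and -0.14 (CENPE). PLK4 and CENPE lay close to the low end of the 50. Both comparisons share the control arrays.

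**Figure D4:**
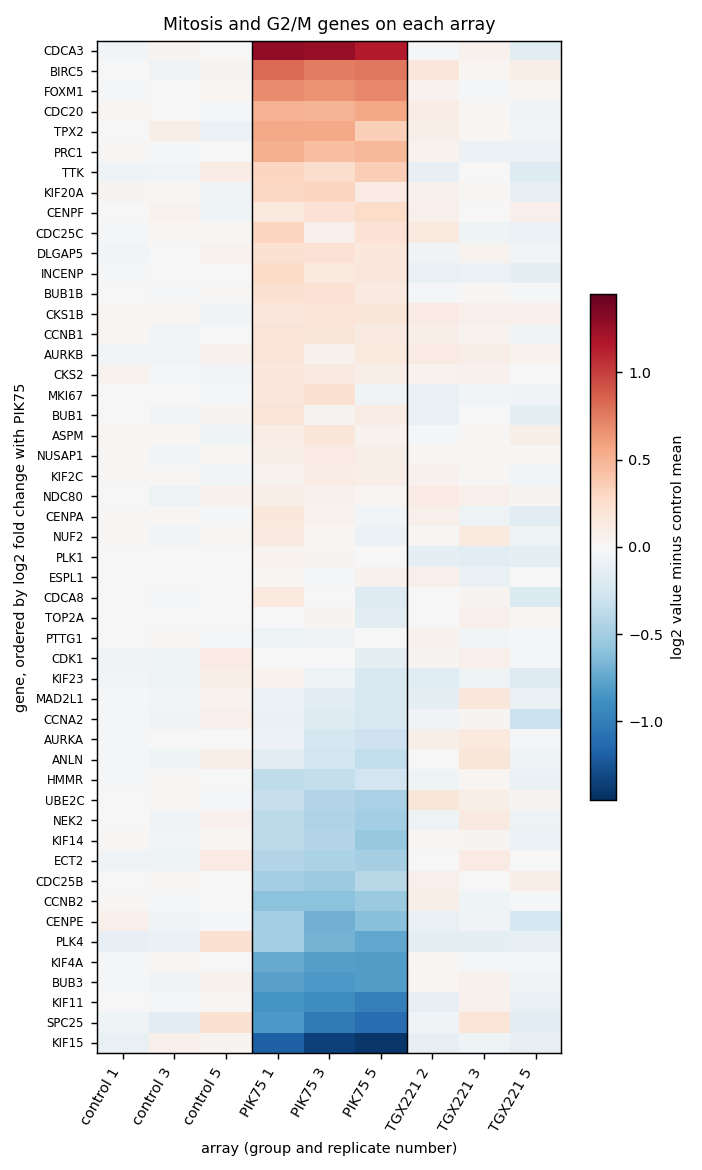
Log2 value minus the control mean (colour, red above and blue below) of the 50 genes (vertical axis, ordered by log2 fold change with PIK75) on the 9 arrays (horizontal axis). The PIK75 columns run from red, CDCA3 at the top with a mean of 1.23, to blue, KIF15 at the bottom with -1.31, while the TGX221 columns stay pale. On the hybridization spikes every PIK75 value would be lower, with a median of -0.33. On the poly-A spikes that median would be -0.06.

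Set directly against TGX221 at the labelled doses, PIK75 gave 15 genes higher and 16 lower (30% and 32%), where 25.1% of all genes were higher and 22.3% lower. Because the doses are not matched, this compares the treatments as given. CDCA3 was 1.27 higher on the log2 scale (adjusted p 1.66e-08) and KIF15 was lower by 1.21 (log2 fold change -1.21, adjusted p 3.29e-08). The genes FOXM1 (0.66), BIRC5 (0.68), CDC20 (0.49), CDCA3 and PRC1 (0.52) were higher under every alternative run other than the 1.5-fold minimum. Under the same alternatives 15 of the 16 lower genes (all but AURKA) were lower wherever tested. KIF15 was not tested in the run without dim genes. At 1.5-fold CDCA3, BIRC5 and FOXM1 were higher and 5 genes were lower, or 6% and 10%. The same rule called 1.73% of all genes higher and 8.44% lower. Among the genes at least as bright as the dimmest of the 50, these shares were 2.64% and 14.2%. PLK1 was called here (0.17, adjusted p 0.0121; spike-centred -0.12), with PIK75 above TGX221 on all arrays, and so was BUB1 (0.19, adjusted p 0.0184; spike-centred -0.10). PLK1 was not called with array medians (adjusted p 0.0532), poly-A spikes (0.015, adjusted p 0.939) or cyclic loess (0.094, adjusted p 0.14), nor BUB1 with array medians (adjusted p 0.0688), poly-A spikes (0.038, adjusted p 0.827) or averaged probe sets (0.085, adjusted p 0.109). The BUB1 call was also lost without PIK75 replicate 1 (adjusted p 0.0627), TGX221 replicate 2 (adjusted p 0.0594) or TGX221 replicate 5 (adjusted p 0.0707). CCNB1 (0.13, adjusted p 0.0575; spike-centred -0.15), CKS1B (0.09, adjusted p 0.128; spike-centred -0.19) and CKS2 (0.09, adjusted p 0.179; spike-centred -0.20) were not called against TGX221, though CCNB1 passed without TGX221 replicate 2 (adjusted p 0.0463). CDC25C (0.20, adjusted p 0.04; spike-centred -0.09) and CENPF (0.15, adjusted p 0.0418; spike-centred -0.14) passed narrowly. CDC25C was lost on leaving out any array but PIK75 replicate 3 or TGX221 replicate 2, and CENPF on leaving out control replicate 1, PIK75 replicate 3 or 5, or any TGX221 array. MKI67 (0.17, adjusted p 0.0502; spike-centred -0.11) passed without PIK75 replicate 5 (0.26, adjusted p 0.00225).

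Other probe sets of the same genes gave a second reading. For 26 of the 50 genes the arrays hold more than 1 single-symbol probe set, 48 besides the brightest, and with each tested on its own (adjusted over all probe sets) 9 of the 48 were higher with PIK75, 17 lower and 22 not called. Over all 54613 probe sets 30.3% were higher and 19.9% lower. In 14 cases another set was called in the direction of the brightest, and in 4 in the opposite one. Of the genes changed at least 1.5-fold, KIF15, SPC25, KIF11, KIF4A, CENPE and FOXM1 have only 1 probe set and so no second reading. Other probe sets moved with the brightest in CDCA3 (1.13), BIRC5 (1.30, 0.52 and 0.48) and BUB3 (3 further sets at -0.83, -1.83 and -1.86). A dim BUB3 probe set also fell (-0.15), but another rose (0.27, adjusted p 0.00888). In CCNB2 (0.31, adjusted p 0.00413), CDC25C (-0.74, adjusted p 5.73e-05) and CENPF (-0.79, adjusted p 7.44e-06) 1 other probe set each went against the brightest. For these 4 genes the direction therefore differed between probe sets. MKI67 was split as well: beside the uncalled brightest set at 0.11, 1 set rose by 0.68 (adjusted p 3.14e-06), 1 fell by 0.58 (adjusted p 1.13e-05) and 1 was at -0.04 (adjusted p 0.689). PLK4 (-0.65), KIF14 (-0.54), HMMR (-0.46), NEK2 (-0.62), ECT2 (-0.55) and ANLN (-0.26) each had another set that fell with the brightest. For genes not called by the brightest set, another was higher in AURKB (0.28) and BUB1 (0.20), and lower in CDK1 (-0.43), ESPL1 (-0.14) and MAD2L1 (-0.15 and -0.38). None of the 48 was called with TGX221, and against TGX221 an AURKA set went the other way (0.24, adjusted p 0.00776).

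**Figure D5:**
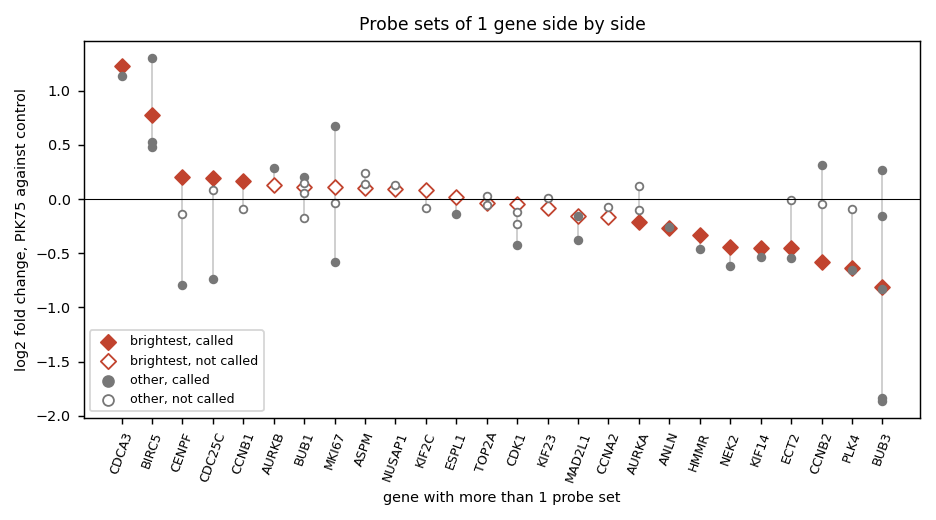
Log2 fold change with PIK75 against control (vertical axis) for each probe set of the 26 genes with more than 1 (horizontal axis), the brightest as a red diamond and the others as grey circles, filled where called. CDCA3 and BIRC5 lie above 0 in all probe sets, while MKI67, CENPF, CDC25C, CCNB2 and BUB3 have called probe sets on opposite sides of 0; on the hybridization spikes each point would lie lower by the same amount.

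Gene length and level were set against the response as a description, without a test. The span of the gene in the genome had a median of 24.0 kb for the 16 genes higher with PIK75, 30.11 kb for the 16 lower and 26.64 kb for the 18 not called. Over all genes, those called higher had a median of 18.11 kb and those called lower 44.14 kb. Across the 50 genes, the log10 span correlated with the log2 fold change at Pearson r -0.352 and Spearman rho -0.227 (n = 50 genes from the same 6 arrays), and across all genes at -0.231 and -0.219. The control level correlated with the change at 0.101 and 0.033 across the 50, and at -0.336 and -0.318 across all genes.

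Further genes of the same machinery were read from 8 lists outside the 50. Of 159 listed genes 152 were measured, of which 36 were higher with PIK75, 71 were lower and 45 were not called, with a median of -0.12. Those are 23.7% higher and 46.7% lower, where 35.2% and 25.2% of all genes were, and 31.4% and 40.5% of the genes at least as bright as the dimmest of the 50. On the hybridization spikes the same 152 gave 3 higher and 117 lower, where 1.95% of all genes were higher and 66.3% lower. In the inner and outer kinetochore 5 of 26 rose and 15 fell (median -0.33), with SPC24, the partner of SPC25, at -1.06 (SE 0.075, adjusted p 1.59e-07), CENPN at -1.03 (SE 0.067, adjusted p 8.18e-08) and OIP5, which loads CENPA, at -0.88 (SE 0.065, adjusted p 2.27e-07). In the anaphase-promoting complex and its regulators 3 of 16 rose and 10 fell (median -0.20), led by ANAPC16 (-0.78), ANAPC4 (-0.68) and ANAPC7 (-0.41). Among further checkpoint proteins 2 of 12 rose and 7 fell (median -0.27), led by MAD1L1 (-1.13), KNTC1 (-0.64) and MAD2L2 (-0.39). Condensin had 1 of 8 higher and 5 lower (median -0.26), with NCAPD3 at -0.74, SMC4 at -0.50 and NCAPH at -0.40. Cohesin and its protectors had 3 of 15 higher and 6 lower (median -0.10), with CDCA5, which encodes sororin, up by 1.15 (SE 0.051, adjusted p 4.65e-09) and PDS5B (-0.54) and PDS5A (-0.43) down.

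Of the regulators of G2/M entry and mitotic exit, 5 of 21 rose and 11 fell (median -0.16), among them VRK1, a chromatin kinase (-1.06), ENSA, an inhibitor of the phosphatase PP2A (-0.92), and PLK2 (-0.89). The spindle, centrosome and cytokinesis genes outside the 50 were balanced, 13 of 44 higher and 14 lower (median 0.04 as deposited, below 0 on the hybridization spikes), with the kinesin KIF18B at 0.85, HAUS1 at -0.89 and CDK5RAP2 at -0.76. Of the MuvB and MYB regulators that act on the CHR and CCAAT elements, 4 of 10 rose and 3 fell (median -0.02): LIN52 at 0.74, and the CCAAT-binding subunits NFYC at -0.37 and NFYA at -0.46. With TGX221, 1 of the 152 was higher (MYBL1, 0.41, adjusted p 0.0363) and none lower, with the call for MYBL1 lost under several alternatives.

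The arrays were checked against the labelled cell type by marker lists. Of 13 neuroendocrine markers of small cell lung cancer 12 were measured, all at a log2 value of at least 6 on all 9 arrays (9.17 to 13.24). The log2 of their summed levels was 15.77 to 15.78 in control, 15.43 to 15.46 with PIK75 and 15.77 to 15.81 with TGX221. Levels of different probe sets cannot be compared, so lists for other cell types were read only between groups, and each sum was higher with PIK75 on this scale: fibroblast markers (6 of 6 measured) 10.43 to 10.48 in control against 10.70 to 10.76, leukocyte markers (5 of 7) 9.52 to 9.62 against 9.72 to 9.86, and endothelial markers (4 of 4) 9.54 to 9.58 against 9.74 to 9.83. With TGX221 these sums were 10.46 to 10.56, 9.55 to 9.63 and 9.47 to 9.52. On log2 array values no probe set reads 0, and the part of these shifts in the results was not tested. None of the 50 genes was below 6 on any array, where 3179 of all genes were.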

How the data were processed

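Total RNA from H69 cells (2 ug per array) was measured on 9 Affymetrix arrays, 3 per group. The authors deposited log2 values for 54675 probe sets on each array; RMA is named, without a version, per the submitters' processing notes. RMA corrects background, gives all arrays the same distribution and summarises probes, so a shift shared by most genes is lost. Symbols came from the platform annotation: 41091 probe sets carry 1 symbol (41037 with an Entrez identifier known to RefSeq), 1801 several and 11721 none, and 62 are controls. The probe set with the highest mean over the 9 arrays stands for each of 19775 genes.

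Groups were compared in 1 limma model (lmFit, eBayes) of 3 group means fitted to all 9 arrays without covariates (6 residual and 6.155 prior degrees of freedom). Benjamini-Hochberg adjustment ran over all 19775 genes, with calls at an adjusted p below 0.05. The fit was tested on simulated data. The number of arrays limits the precision, and the labels name no batch. Alternatives were scaling (array medians, 24 poly-A spike and 18 hybridization spike probe sets, cyclic loess), the probe sets used, dim genes, the groups fitted, the spread, array weights, the replicate block, stricter thresholds and leaving out each array. The 50 genes, their roles, the 8 further lists and the tests were chosen with earlier results of these data known. Every one of the 50 genes is named; array values are given for up to 3 genes per role with the smallest p (PIK75 against control) and for CDK1, CCNB1, PLK1, AURKA, AURKB, FOXM1, MKI67 and TOP2A, and up to 3 genes per further list are named by the same order. Promoter windows are RefSeq's (GRCh38.p14). Tools were limma 3.58.1 in R 4.3.3, and matplotlib 3.10.9, scipy 1.17.1, pandas 2.3.3 and numpy 2.4.6 in Python 3.11.15.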

Additional observations from a re-analysis of the deposited data

How the results depend on the processing

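For PIK75 against control the 16 higher genes became 3 at 1.5-fold, 10 with array medians, 6 with poly-A spikes and 3 with hybridization spikes, and the 16 lower became 7 at 1.5-fold and 38 with hybridization spikes. For PIK75 against TGX221 the 15 higher became 3 at 1.5-fold, 7 with poly-A spikes and 5 with hybridization spikes, and the 16 lower became 5 at 1.5-fold and 32. For the 152 further genes with PIK75 the 36 higher became 3 at 1.5-fold, 20 with poly-A spikes and 3 with hybridization spikes, and the 71 lower became 23 at 1.5-fold and 117 with hybridization spikes. Of all genes with PIK75 against control, 1.48% were higher and 10.4% lower at 1.5-fold. Among the genes at least as bright as the dimmest of the 50, these shares were 2.2% and 17.2%. Over all genes the shares were 1.95% and 66.3% with hybridization spikes, and 12.5% were higher with poly-A spikes. With TGX221 the 1 higher (MYBL1) became 0 at an adjusted p below 0.01, at 1.5-fold, with averaged probe sets, with all probe sets tested, with only both groups fitted and with the replicate block, 2 with poly-A spikes, 3 with array weights and 0 to 3 on leaving out an array. The 0 lower became 1 with poly-A spikes, 4 with hybridization spikes, 1 with a trended spread, 6 with array weights and 0 to 5 on leaving out an array, the highest of both without TGX221 replicate 3. The 50 genes with TGX221 stayed at 0 calls in every setting, with 48 of them tested without dim genes. No gene at all was called with only both groups fitted, with the replicate block, or without control replicate 3. The same held without TGX221 replicate 2 or 5, so 0 calls are uninformative in these settings.

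On the hybridization spikes, log2 fold changes against control turned to -0.18 (CCNB1), -0.17 (CKS1B), -0.23 (CKS2), -0.16 (CDC25C), -0.24 (MKI67), -0.33 (PLK1), -0.22 (AURKB), -0.16 (INCENP), -0.24 (BUB1), -0.17 (BUB1B), -0.045 (TTK), -0.29 (NDC80), -0.33 (NUF2), -0.30 (CENPA), -0.15 (CENPF), -0.33 (ESPL1), -0.11 (KIF20A), -0.26 (KIF2C), -0.16 (DLGAP5), -0.25 (ASPM) and -0.26 (NUSAP1). Against TGX221 they turned to -0.19 (CKS1B), -0.20 (CKS2), -0.086 (CDC25C), -0.12 (PLK1), -0.24 (AURKB), -0.25 (CDCA8), -0.099 (BUB1), -0.10 (BUB1B), -0.14 (CENPF), -0.27 (ESPL1), -0.22 (KIF23), -0.031 (KIF20A), -0.21 (KIF2C), -0.082 (DLGAP5), -0.20 (ASPM) and -0.21 (NUSAP1), and, called on neither scale, to -0.15 (CCNB1), -0.11 (MKI67) and -0.18 (CENPA). Uncalled genes already below 0 against control were all called lower on those spikes. These were CCNA2 (-0.52), CDK1 (-0.40), TOP2A (-0.39), CDCA8 (-0.36), MAD2L1 (-0.51), PTTG1 (-0.39) and KIF23 (-0.44). The shift is the same for every gene by construction. With averaged probe sets CDC25C turned to -0.15 against control and -0.069 against TGX221, and CENPF to -0.24 against both. With poly-A spikes CENPF against TGX221 was -0.001. The cause was not tested.

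Deviations of same-numbered control and PIK75 arrays from their group means correlated at -0.134, 0.122 and -0.046. Those of control and TGX221 correlated at 0.082 and -0.023, and those of PIK75 and TGX221 at 0.065 and 0.235. Differently numbered arrays gave -0.292 to 0.256. With 3 arrays per group, these correlations cannot settle whether the replicate numbers pair the samples. With the replicate block, PIK75 against control gave 15 higher and 16 lower, and against TGX221 10 higher, where PLK1 (adjusted p 0.0792), BUB1 (0.134), BUB1B (0.0616), CENPF (0.0853) and DLGAP5 (0.0549) were not called.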
